A study of Mus musculus with 2 samples.

Results

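The genes of the mitochondrial respiratory chain and of the ATP synthase were read on 2 two-colour arrays of mouse prostaspheres with and without the transcription factor Sox9. The members were taken by symbol: spots that are not controls and whose gene name starts with Nduf, Uqcr, Atp5, Cox4, Cox5, Cox6, Cox7 or Cox8, or is Sdha, Sdhb, Sdhc or Sdhd. This gave 86 genes of the 27827 gene names on the array, with 125 probes of 1 spot each. By symbol, 37 are subunits of complex I, 4 of complex II, 7 of complex III, 18 of complex IV and 15 of complex V. Another 5 carry such a symbol without being subunits: the complex I assembly factors Ndufaf1 and Ndufaf2, Atp5s and Atp5sl (in RefSeq now Dmac2l and Dmac2), and Cox4nb (now Emc8). All 86 matched a RefSeq gene, 5 of them under another symbol, among them Uqcr (now Uqcr11) and Atp5f1 (now Atp5pb). The value of a gene is that of its brightest probe. Of the 86, 82 passed the filter on dim probes, and 80 of these were well above background in all 4 RNAs. Cox4i2, Cox7b2, Cox7c and Cox8c did not pass and are given only as not well above background.

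Prostaspheres are balls of prostate epithelial cells grown from single cells in Matrigel. Per the labels, they came from the urogenital sinus of embryos 16 days post conception on a C57/Bl6J background, grew for 6 days with the androgen dihydrotestosterone, and were then given 5 micromolar tamoxifen (TAM) or vehicle for 6 days. The study's methods describe its sphere assay with cells of the adult prostate instead. In the genotype comparison, RNA of wild-type spheres with TAM (Cy5) was set against RNA of ER-Sox9flox/flox spheres with TAM (Cy3). In the treatment comparison, RNA of ER-Sox9flox/flox spheres with vehicle (Cy5) was set against RNA of ER-Sox9flox/flox spheres with TAM (Cy3). ER-Sox9flox/flox cells carry a tamoxifen-activated Cre and Sox9 alleles that it can delete. Each comparison is 1 array with RNAs of its own. TAM was given to both RNAs of the genotype comparison, so genotype separates them. By their label, wild-type spheres lack both the Cre and the floxed alleles. Active Cre, loss of Sox9 and other differences between the cultures therefore cannot be told apart there. In the treatment comparison both RNAs have the same genotype label, so TAM itself and the deletion it induces cannot be told apart. That shared label is Sox9 null, the vehicle RNA included. The vehicle RNA is called Sox9-expressing here from its title and treatment, against that label, and the direction of every treatment ratio rests on this reading.

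A log2 ratio is that of Sox9-expressing over Sox9-deleted RNA, so a value above 0 is a higher signal with Sox9. The source names of the labels, which call each Cy5 RNA SOX9 and each Cy3 RNA a control, were not used. The brightest of 3 Sox9 probes read 2.69 in the genotype and 2.37 in the treatment comparison, another 1.18 and 1.27, and the last -0.997 and -1.22. Cy5 was on the Sox9-expressing side of both arrays with no dye swap, so dye and Sox9 cannot be told apart. As cell type check, the basal epithelial genes Krt5, Krt14 and Trp63 and the epithelial gene Epcam were well above background in all 4 RNAs, and all 8 epithelial markers looked up were tested, 4 of them higher and 3 lower on both arrays. Krt5 read 2.13 and 1.91, and the luminal gene Krt18 -0.28 and -1.02. Of 4 immune markers Cd68 and Lyz2 were tested, both lower on both arrays, and of 2 brown fat markers Cidea, likewise lower. The testis markers Prm1 and Tnp1 were near 0, with Prm2 and Ddx4 not tested. The part of such cells in the respiratory chain values was not tested. In spheres, a smaller share of cells of a type and less RNA per cell cannot be told apart.

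The respiratory chain passes electrons from NADH, at complex I, and from succinate, at complex II, through ubiquinone to complex III, then through cytochrome c to complex IV, which reduces oxygen. Complexes I, III and IV pump protons out of the mitochondrial matrix, and complex V, the ATP synthase, makes ATP as they flow back. Complex II is the exception: it pumps no protons and is also an enzyme of the citric acid cycle. Most subunits are encoded in the nucleus, a few in mitochondrial DNA, and several complex IV subunits have separate isoforms for heart and skeletal muscle, lung or testis.

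The respiratory chain genes differed little between Sox9-expressing and Sox9-deleted spheres, and they leaned to the Sox9-expressing side. Of the 82 tested, 44 (53.7%) were higher on both arrays, against 33.8% of all 15122 tested genes. Another 16 (19.5%) were lower on both arrays, against 33.7% of all tested genes, and 22 (26.8%) had opposite directions, against 32.4%. Their median log2 ratio was 0.06 in the genotype and 0.09 in the treatment comparison. The median over all tested genes was -0.009 and 0.012. The shifts are small: 76 of the 82 had a mean log2 ratio within 0.25 of 0, with a lower quartile of -0.02 and an upper quartile of 0.14.

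With limma, none of the 82 passed an adjusted p of 0.05, and the lowest adjusted p was 0.143. Over all tested genes 0.0132% passed. At an unadjusted p under 0.05, 10 members were higher and 1 lower, against 10.4% of all tested genes higher and 9.07% lower. No member reached 2-fold in the same direction on both arrays, against 0.536% of all tested genes. Members are bright: 66 of the 82 lie in the brightest 20% of the tested genes. Within that 20%, 35.7% of genes were higher on both arrays and 36.9% lower, with a median of -0.012.

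The sign of values this small depends on the scaling. With the ratios of each array centred on their median in place of loess, the median of all tested genes was 0.02 in the genotype and 0.42 in the treatment comparison, and that of the brightest 20% was 0.09 and 0.64. Then 67 members were higher on both arrays and 0 lower, and the members' median was 0.45, against 0.36 for the brightest 20% (means of both arrays). With the scanner software's processed signals the lean was weaker, with 36 members higher, 22 lower and a median of 0.035. Values below 0 in the text, complex II and the mitochondrial ribosome included, are thus relative to other genes of like brightness.

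**Figure D1:**
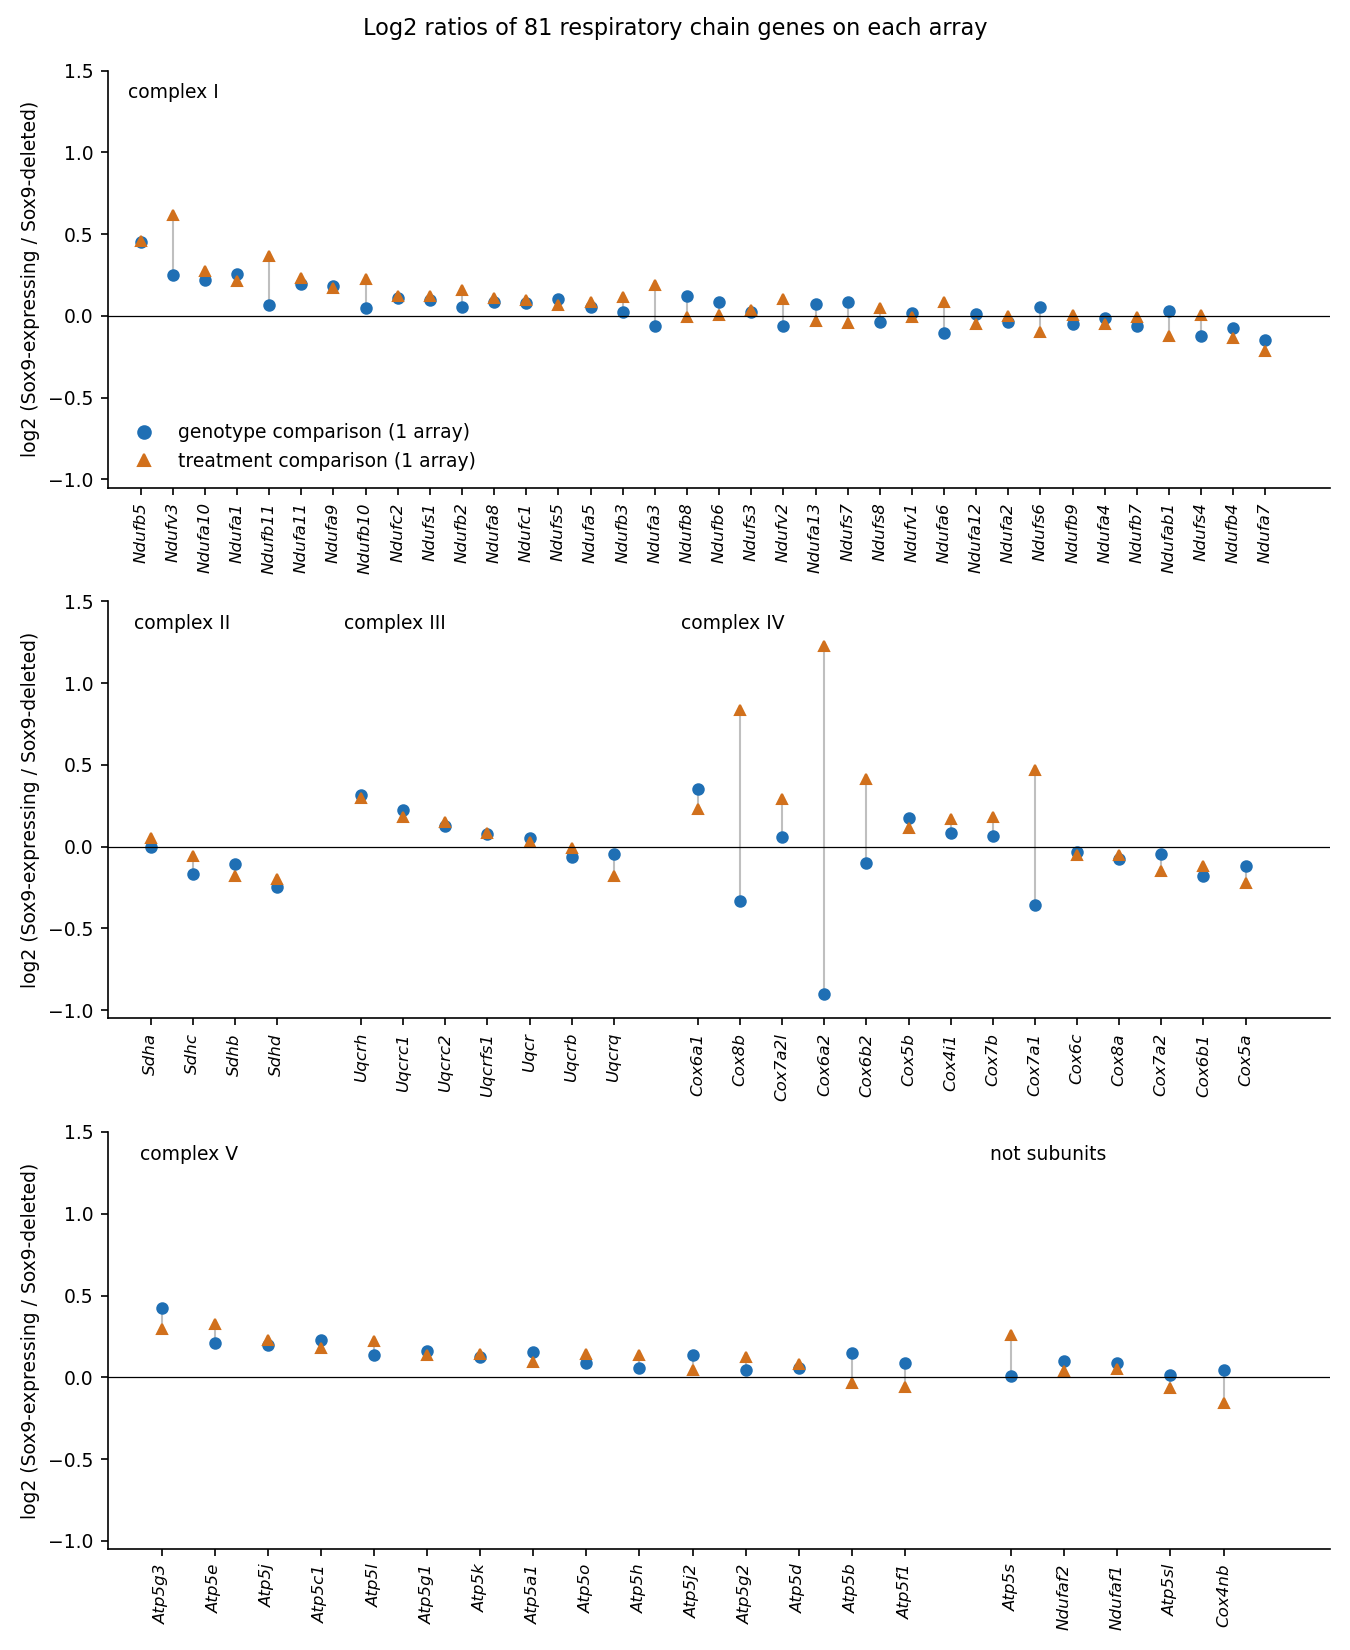
Log2 ratio of Sox9-expressing over Sox9-deleted RNA (y axis) of 81 of the tested genes, in order of their mean within each complex, with the genotype comparison as circles and the treatment comparison as triangles, 1 array each. Complex V lies almost wholly above 0 and complex II almost wholly below, the latter with loess but not with median centring. Cox6a2, Cox8b and Cox7a1 are far apart on the arrays.

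The complexes did not lie alike. Complex V had 13 of 15 tested genes higher on both arrays and 0 lower, and over all scalings 10 to 15 were higher and 0 or 1 lower. Complex III had 5 of 7 higher and 2 lower. Complex I had 18 of 37 higher and 6 lower. Complex IV was split, with 5 of 14 higher, 5 lower and 4 in opposite directions. Complex II stood on the other side, with 0 of 4 higher and 3 lower, which median centring turned to 1 higher and 0 lower. The medians of the mean log2 ratio were 0.13 for complex V, 0.12 for complex IV (-0.06 in the genotype and 0.17 in the treatment comparison), 0.08 for complex III, 0.04 for complex I and -0.13 for complex II. With median centring they were 0.55 for complex V and 0.21 for complex II, on either side of the 0.36 of the brightest 20%. The median of complex IV was -0.05 with the scanner software's signals. These counts and medians describe 2 arrays, and differences between the complexes were not tested.

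**Figure D2:**
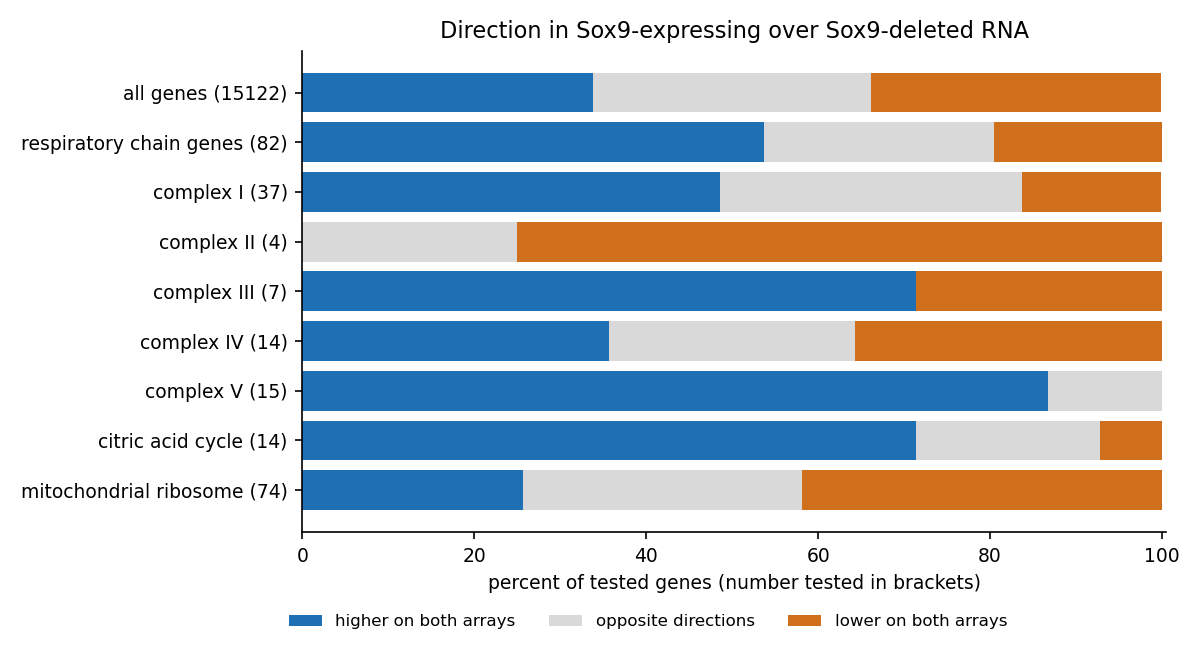
Percent of tested genes that were higher on both arrays, in opposite directions, or lower on both arrays, for all genes, the members, each complex and a pair of comparison lists, with the number tested in brackets. Complex V shows 0 genes lower on both arrays and complex II 0 higher (1 higher and 0 lower with median centring).

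Complex I is the NADH dehydrogenase that feeds electrons into the chain. Its highest member was Ndufb5, an accessory subunit of the membrane arm. Its brightness was 899 in wild-type + TAM against 657 in ER-Sox9flox/flox + TAM, and 802 in vehicle against 584 in TAM. The Sox9-expressing RNA was brighter on each array, by log2 0.45 and 0.46. The mean was 0.46 ± 0.004 (SD, n = 2 arrays), with a moderated 95% interval of 0.25 to 0.66. Its limma adjusted p was 0.143.

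Ndufv3, a small subunit of the NADH-oxidizing tip of complex I, was next. Its brightest probe read 1971 against 1654 in the genotype comparison and 2431 against 1585 in the treatment comparison, a log2 ratio of 0.25 and 0.62 (mean 0.44 ± 0.26 SD, n = 2, limma adjusted p = 0.222). The gene has 3 probes, and their sizes differ, so the probe letters are shown here. Positions are those the array files give, on mouse build mm9 and the plus strand. The brightest lies at chr17:31658570-31658629, the others at chr17:31664691-31664750 and chr17:31665148-31665207, and letters are 5′ to 3′.

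Ndufv3, brightest probe: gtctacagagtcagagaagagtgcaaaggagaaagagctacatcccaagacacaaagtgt
Ndufv3, second position: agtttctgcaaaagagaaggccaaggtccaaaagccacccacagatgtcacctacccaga
Ndufv3, last position: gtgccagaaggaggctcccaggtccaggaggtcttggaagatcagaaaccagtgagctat

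The probe at the second position read 0.01 and 0.12, and the last 0.10 and 0.27. On both arrays all 3 probes were above 0, and each read more in the treatment than in the genotype comparison. The brightest lies apart from the other two on the chromosome. The array files name transcript variant 1 as the target of each, and no exon table of this build was used here.

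Other complex I genes were closer to 0. Ndufa10, an accessory subunit, read 0.22 and 0.28, and Ndufa1, a small membrane-arm subunit encoded on the X chromosome, read 0.26 and 0.21. A second Ndufa1 probe gave 0.26 and 0.30, and both probes of Ndufa11 had means between 0.20 and 0.21. At the other end Ndufa7 read -0.15 and -0.22, and its second probe -0.10 and -0.07. Ndufb4 read -0.07 and -0.13. Several core subunits of the arm that holds the flavin and the iron-sulphur clusters lay near 0. Ndufv1 had a mean of 0.003, Ndufv2 of 0.02, Ndufs3 of 0.03, Ndufs7 of 0.02 and Ndufs8 of 0.006. Ndufs1, also a core subunit, was higher, with a mean of 0.11. Ndufa4, a protein now placed with complex IV, read -0.01 and -0.05.

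Probes of a gene can differ in sign, as those of Ndufa8 did. Its brighter probe, at chr2:35891854-35891910 on mm9, read 0.08 and 0.11, and the other, at chr2:35891871-35891930, read -0.06 and -0.06. These windows overlap, yet the signs oppose on both arrays. Of 22 members with more than 1 tested probe, Ndufa8 was the 1 with opposite signs on both arrays, and in 16 all probes shared the sign of the mean.

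Complex II, succinate dehydrogenase, links the chain to the citric acid cycle. Sdhd, 1 of the pair of membrane anchors, read 3376 against 4004 in the genotype and 3215 against 3693 in the treatment comparison. The Sox9-deleted RNA was brighter on each array, with log2 ratios of -0.25 and -0.20 (mean -0.22 ± 0.03 SD, n = 2, limma adjusted p = 0.266, and 0.14 with median centring). Sdhc, the other anchor, read -0.17 and -0.06. Sdhb, the iron-sulphur subunit, read 2315 against 2489 and 2359 against 2675, a log2 ratio of -0.11 and -0.18. Sdha, the flavoprotein that oxidizes succinate, read -0.002 and 0.05, and its 3 probes had means between -0.004 and 0.03.

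The 3 subunits that were lower on both arrays are the iron-sulphur partner and both anchors, and the catalytic subunit was at 0 within the spread between arrays. The Sdhb probe is shown because it spans a junction: its 60 bases cover chr4:140522514-140527081 on mm9, plus strand, a stretch of 4568 bases.

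Sdhb: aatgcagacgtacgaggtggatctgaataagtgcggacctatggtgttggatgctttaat

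Complex III passes electrons from ubiquinol to cytochrome c. Uqcrh, the hinge protein that helps cytochrome c dock, read 25265 against 20297 in the genotype and 28553 against 23262 in the treatment comparison. The log2 ratios were 0.32 and 0.30 (mean 0.31 ± 0.01 SD, n = 2, limma adjusted p = 0.195). A second Uqcrh probe, at chr4:115742492-115742551 on mm9 and the minus strand, read 0.23 and 0.32, so 2 probes at separate positions had the same sign and a like size. That second probe is printed here.

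Uqcrh: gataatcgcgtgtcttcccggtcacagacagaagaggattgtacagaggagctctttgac

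The core proteins Uqcrc1 and Uqcrc2 read 0.23 and 0.18, and 0.13 and 0.15. Uqcrfs1, the Rieske iron-sulphur protein, had a mean of 0.08. The small subunits Uqcrq and Uqcrb were lower, with -0.05 and -0.18 for Uqcrq and -0.06 and -0.01 for Uqcrb. Uqcr read 0.05 and 0.03.

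Complex V makes ATP. In the genotype comparison 15 of its 15 genes were above 0, and in the treatment comparison 13 were. Atp5g3 was highest. It is 1 of 3 genes that encode the same mature c subunit of the rotor ring. Its brightness was 18856 against 14048, and 19148 against 15584, and the log2 ratios were 0.43 and 0.30 (mean 0.36 ± 0.09 SD, n = 2, limma adjusted p = 0.186). The other c subunit genes were lower: Atp5g1 read 0.16 and 0.13, and Atp5g2 read 0.04 and 0.13.

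These genes differ mainly in their leader peptides, so the letters of a pair of probes were compared. The Atp5g3 probe and the Atp5g2 probe behind the values above were not compared, so cross-reading of the c subunit values was not tested. The Atp5g1 probe (chr11:95934924-95934983, mm9, minus strand) and a second probe of Atp5g2 (chr15:102495586-102495645, mm9, minus strand), which read 0.02 and 0.20, are set side by side with their longest common run, 14 of 60 bases, in capitals.

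Atp5g1: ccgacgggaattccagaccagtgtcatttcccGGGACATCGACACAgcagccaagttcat
Atp5g2: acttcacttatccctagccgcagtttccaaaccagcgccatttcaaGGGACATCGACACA

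Atp5e, the epsilon subunit of the rotor stalk, read 17263 against 14925 and 19979 against 15925, a log2 ratio of 0.21 and 0.33 (mean 0.27 ± 0.08 SD, n = 2, limma adjusted p = 0.235). Atp5j, coupling factor 6 of the outer stalk, read 0.20 and 0.23, and Atp5c1, the gamma subunit of the central stalk, 0.23 and 0.18. The alpha subunit gene Atp5a1 read 0.16 and 0.10. The catalytic beta subunit gene Atp5b read 0.15 and -0.04, and its other probes -0.007 and -0.14, and -0.13 and -0.03. Atp5f1, subunit b of the outer stalk, read 0.09 and -0.06, and Atp5d, the delta subunit, 0.06 and 0.08. Atp5b and Atp5f1 were the 2 complex V genes in opposite directions.

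Complex IV, cytochrome c oxidase, reduces oxygen to water. Cox6a1, the form of subunit VIa found in most tissues, had its highest mean: 68013 against 53283 and 65817 against 56012, a log2 ratio of 0.35 and 0.23 (mean 0.29 ± 0.08 SD, n = 2, limma adjusted p = 0.219). With the processed signals of the scanner software, however, the mean was -0.03. Cox4i1, the general form of subunit IV, read 0.08 and 0.17, and Cox5b 0.17 and 0.11. Cox7a2l read 0.06 and 0.29, and Cox7b 0.06 and 0.18. Lower values were read for Cox5a (-0.12 and -0.22), Cox6b1 (-0.18 and -0.12), Cox7a2 (-0.05 and -0.15), Cox8a (-0.08 and -0.05) and Cox6c (-0.04 and -0.05). Cox4i2, the lung form of subunit IV, and Cox7b2 and Cox8c, described from testis, were not well above background.

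The muscle isoforms of complex IV were the members that differed most between the arrays. Cox6a2, the heart and skeletal muscle form of subunit VIa, read 134 in wild-type + TAM, which was not well above background, against 250 in ER-Sox9flox/flox + TAM. On the other array it read 362 in vehicle against 155 in TAM. The Sox9-deleted RNA was thus the brighter one in the genotype comparison, by at least 1.86-fold, and the Sox9-expressing RNA in the treatment comparison, with log2 ratios of -0.90 and 1.23.

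Cox8b, the muscle form of subunit VIII, read 134 (not well above background) against 168, at least 1.26-fold, and 183 against 103, with log2 ratios of -0.33 and 0.83. Cox7a1, the muscle form of subunit VIIa, read 489 against 626 and 882 against 639, with log2 ratios of -0.36 and 0.47. Its probe is printed because it is the muscle isoform that was well above background in all 4 RNAs. It spans chr7:30970337-30970948 on mm9, plus strand, 612 bases. The Cox4i1 probe (chr8:123197924-123197983, mm9, plus strand) follows as an isoform of most tissues.

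Cox7a1: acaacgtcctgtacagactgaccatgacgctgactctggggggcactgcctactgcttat
Cox4i1: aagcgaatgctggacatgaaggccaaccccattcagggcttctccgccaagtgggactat

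Cox6b2, a form described from testis, had the same signs, -0.10 and 0.42. For Cox6a2, Cox8b and Cox7a1 the limma adjusted p of the mean over both arrays was 0.896, 0.704 and 0.914, and the difference between the arrays was not tested. Brightness may be compared within an array, not across them. The general forms Cox6a1, Cox7a2 and Cox8a kept 1 sign on both arrays.

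**Figure D3:**
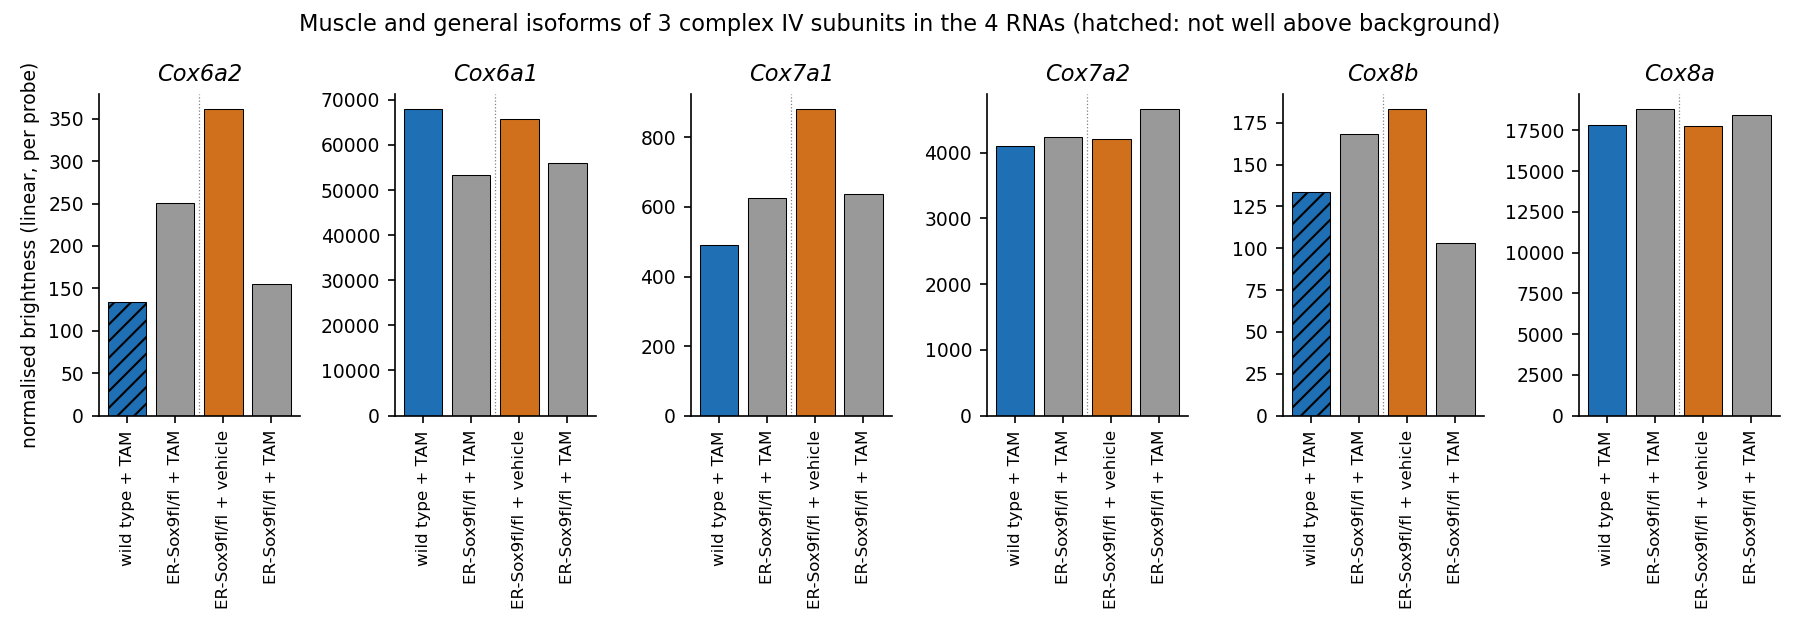
Normalised linear brightness (y axis, a scale of its own in each panel) of the muscle form and the general form of 3 complex IV subunits in the 4 RNAs, 1 value each. The dotted line separates the genotype array (left) from the treatment array (right), and hatched bars were not well above background. The muscle forms are brighter in TAM-treated ER-Sox9flox/flox RNA on the left and dimmer on the right.

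Skeletal muscle markers moved with these isoforms. Of 14 listed, 11 were tested. All 11 were lower in the genotype and higher in the treatment comparison, against 2790 of all 15122 tested genes. The median of the 11 was -0.96 and 1.36. Acta1, skeletal actin, had a log2 ratio of -1.33 and 1.92, and Tnnc2, fast troponin C, of -1.83 and 2.54. Ckm, Myh2 and Casq1 were not tested. Brightness of the 11 ranged from 136 to 914 in wild-type + TAM, where Tnnt3, Myh1 and Myh4 were not well above background, from 172 to 1108 and from 97.5 to 927 in the Sox9-deleted RNAs, and from 224 to 2751 in vehicle.

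Of 6 fibroblast markers 5 went the same way, with a median of -0.82 and 0.94, and 3 of 4 smooth muscle markers did. Heart markers did not: 4 of 6 were tested, with a median of 0.11 and -0.02, and Myh6 and Myl7 were not tested. The part of these cells' RNA in the isoform values was not tested. Without Cox6a2, Cox7a1 and Cox8b, the counts for the members were 44 higher and 16 lower of 79, and complex IV held 5 higher, 5 lower and 1 in opposite directions.

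Over the 82 genes, the values of both arrays had a Pearson correlation of -0.13, against 0.45 over all 22731 tested probes. Over the 79 without Cox6a2, Cox8b and Cox7a1 it was 0.65, but those were left out as the largest differences between the same arrays, so the rise follows from that choice and shows nothing more. Genes are not independent replicates, and the points share the dye orientation, the slide and the range of brightness. The 5 members with the highest mean log2 ratio were Ndufb5, Ndufv3, Atp5g3, Uqcrh and Cox6a1, and those below 0 in both stayed within 0.25 of 0.

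**Figure D4:**
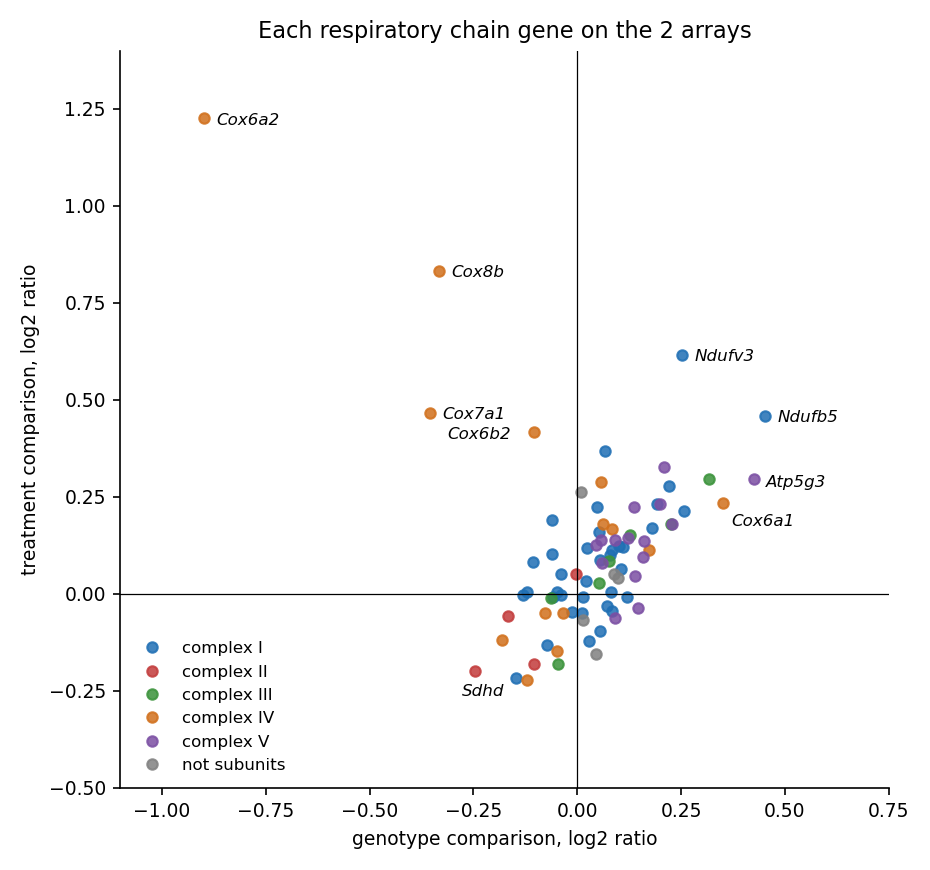
Log2 ratio in the genotype comparison (x axis) against the treatment comparison (y axis) for the 82 tested genes, coloured by complex, 1 point per gene. Most points lie close to 0. Cox6a2, Cox8b, Cox7a1 and Cox6b2 are labelled and lie below 0 in the genotype and above 0 in the treatment comparison.

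The proteins that assemble the complexes were read next. Ndufaf1 read 0.09 and 0.05 and Ndufaf2 0.10 and 0.04. Of 19 tested genes of other assembly factors, 5 were higher on both arrays and 6 lower, and with median centring 10 were higher and 1 lower. Surf1, needed to build complex IV, read -0.33 and -0.29, and Bcs1l, which inserts the Rieske protein into complex III, 0.27 and 0.28. Oxa1l, which inserts proteins into the inner membrane, read 0.16 and 0.32. Acad9, a complex I assembly factor, read -0.43 and 0.15. In the lists of this and the next paragraphs, none passed an adjusted p of 0.05 with limma. At an unadjusted p under 0.05 there were 3 of the 19 assembly factors. The shares of all tested genes at that unadjusted p, against which the counts of these lists stand, were 10.4% higher and 9.07% lower.

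The carriers between the complexes were mixed, with 2 of 12 tested higher on both arrays and 4 lower (7 and 0 with median centring), and 2 at an unadjusted p under 0.05. Cycs, somatic cytochrome c, read -0.31 and -0.34, and its partner in complex III, Cyc1, 0.15 and -0.32. Etfdh, which passes electrons from fatty acid oxidation to ubiquinone, read 0.28 and 0.26. Cyct, the testis cytochrome c, was not tested.

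The 2 mitochondrially encoded subunits named on the array were below 0 on both arrays. COX2, of complex IV, read -0.13 and -0.55, and CYTB, of complex III, -0.05 and -0.39. With median centring both were above 0 on both arrays, with a median of 0.21 against 0.36 for the brightest 20%. The nuclear genes of complexes III and IV had medians of 0.08 and -0.06 in the genotype comparison, and of 0.08 and 0.17 in the treatment comparison. Without the 3 muscle isoforms complex IV had medians of -0.035 in the genotype and 0.114 in the treatment comparison.

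Genes of the mitochondrial ribosome, which translates those subunits, were 19 of 74 (25.7%) higher on both arrays and 31 (41.9%) lower. Their median was -0.02 and -0.07. With median centring 49 were higher and 0 lower, with a median of 0.28. Mrpl45 read -0.33 and -0.43, Mrpl55 -0.26 and -0.35, and Mrps18a -0.26 and -0.41. These were the 3 of 74 at an unadjusted p under 0.05 with limma, all lower, against 9.07% of all tested genes lower.

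The citric acid cycle, which supplies NADH and succinate, had 10 of 14 tested genes higher on both arrays and 1 lower. Its median was 0.10 and 0.07. Idh2, the NADP-dependent isocitrate dehydrogenase of mitochondria, read 0.36 and 0.81, and Suclg2, the GTP-forming subunit of succinyl-CoA synthetase, 0.21 and 0.59. These were the 2 at an unadjusted p under 0.05. The rest lay within 0.25 of 0 as means.

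Regulators of mitochondrial biogenesis had 7 of 15 tested genes higher on both arrays and 2 lower. Ppargc1b, a coactivator of respiratory genes, read 0.26 and 0.31 and was the 1 at an unadjusted p under 0.05. Its relative Ppargc1a read 0.05 and -0.07. The transcription factors Nrf1 and Gabpa, known to bind respiratory gene promoters, read 0.20 and 0.20, and 0.04 and 0.02. Tfam, the activator of mitochondrial DNA transcription, read -0.04 and -0.08.

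Hypoxia targets had larger values than the respiratory genes. Of 13 tested, 7 were higher on both arrays and 1 lower, the median was 0.24 and 0.67, and 6 were at an unadjusted p under 0.05. Pdk1, the kinase that shuts pyruvate out of the citric acid cycle, read 0.64 and 1.31. Pgk1 and Ldha, both of glycolysis, read 0.55 and 0.91, and 0.39 and 0.67. The other 5 (38.5%, against 32.4% of all tested genes) had opposite directions. Of these, 4 were lower in the genotype and higher in the treatment comparison, as the skeletal muscle markers were: Egln3, an oxygen-sensing prolyl hydroxylase, read -1.01 and 0.12, the collagen prolyl hydroxylase gene P4ha1 -0.33 and 0.76, Ankrd37 -0.29 and 0.62, and Adm, which encodes adrenomedullin, -0.20 and 0.89. Vegfa, the vascular growth factor, read 0.29 and -0.01. Hk2, a hexokinase, was the 1 lower on both, with -0.12 and -0.39.

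**Figure D5:**
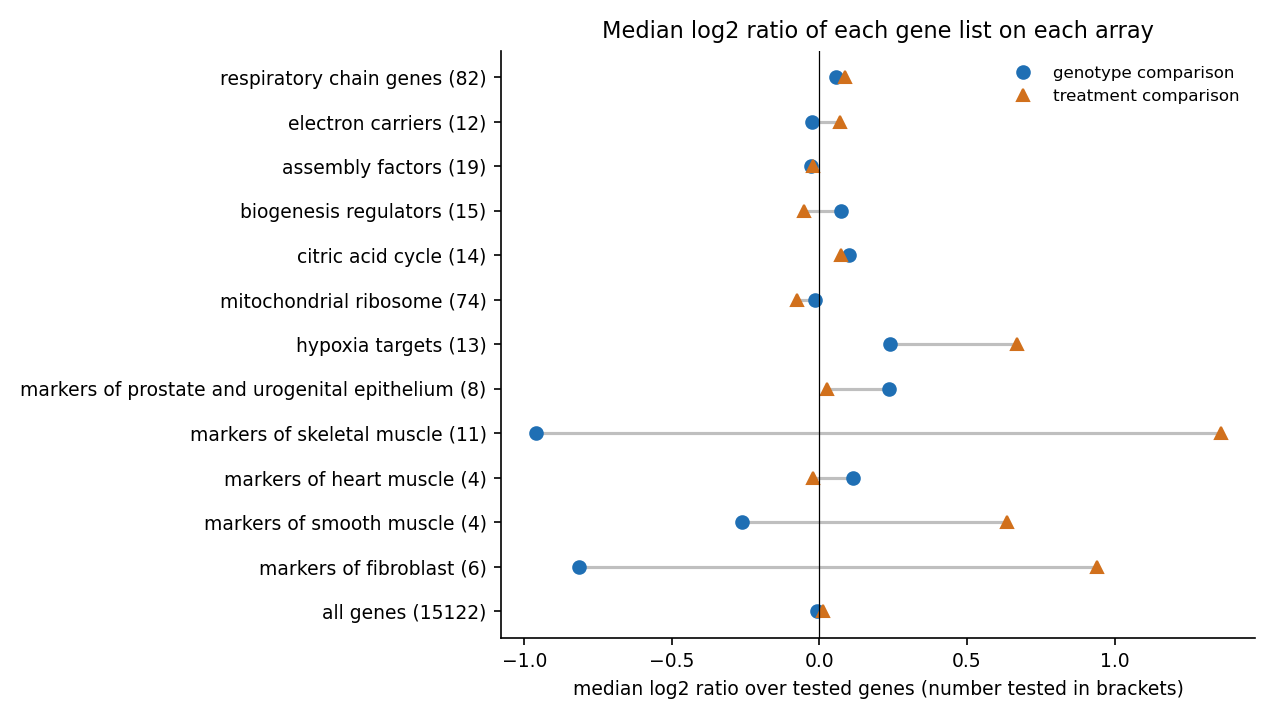
Median log2 ratio over the tested genes of each list (x axis), with the genotype comparison as circles and the treatment comparison as triangles, and the number of tested genes in brackets. Skeletal muscle and fibroblast markers lie on both sides of 0, and the respiratory chain genes lie just above it on both arrays.

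Since members of several complexes had the same sign, their promoters were read. RefSeq windows of build GRCm38.p6, from 250 bases before to 50 after the start, were at hand for 71 of the 86 genes (77 windows). Letters known for NRF1, GCGCNNGCGC, were in 20 of the 77 windows (26%), against 6.23% of all 32851 windows. Letters of ETS factors such as GABPA, CCGGAAG on either strand, were in 17 (22.1%), against 8.86%. Windows at least as rich in G and C as the members' lower quartile held them in 12.4% and 14.9%. Both motifs were in 4 windows, and whether their letters overlap there was not checked.

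Values of members with and without these letters are given as a description, and differences between them were not tested. The 19 tested genes with the NRF1 letters had medians of 0.06 and 0.11, and the 50 without them of 0.06 and 0.08. For the ETS letters the medians were 0.06 and 0.05 with them (17 genes) and 0.06 and 0.11 without (52 genes). Of the 17 with ETS letters, 11 were higher on both arrays and 5 lower, and of the 52 without them 29 and 5. Of the 19 with NRF1 letters, 12 were higher and 2 lower, and of the 50 without them 28 and 8. Over all tested genes the shares were 33.8% higher and 33.7% lower. Stretches of 60 bases upstream of the start are printed for 2 genes that read higher with Sox9 and 1 that read lower, all on the minus strand, with the motif letters in capitals. Cox6a1 is shown from 187 to 128 bases before its start, Atp5e from 129 to 70 and Sdhd from 104 to 45.

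Cox6a1: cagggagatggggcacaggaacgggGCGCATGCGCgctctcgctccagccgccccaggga
Atp5e: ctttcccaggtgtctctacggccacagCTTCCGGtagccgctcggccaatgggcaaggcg
Sdhd: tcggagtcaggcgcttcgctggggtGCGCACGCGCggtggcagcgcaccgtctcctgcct

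The NRF1 letters lay before Cox6a1, at 0.35 and 0.23, and before Sdhd, at -0.25 and -0.20. Of the 3 highest members, the windows of Ndufb5 and Ndufv3 held neither motif, and that of Atp5g3 held the NRF1 letters after the start.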

How the data were processed

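Total RNA of 4 prostasphere samples was hybridized to 2 arrays of 1 slide. The authors' scanner software, Agilent Feature Extraction 10.5.1.1, deposited mean spot and local background intensities, processed intensities and the log10 ratio of Cy5 over Cy3. A further deposited table holds processed values by the authors, which on these spots behave as log2 ratios. The labels name limma, and the steps behind that table are not given in the sources used here.

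Intensities were corrected with normexp (offset 50) and loess-normalized within each array in limma 3.58.1 (R 4.3.3). Of 45018 spots, 1639 were controls and were left out, as were 126 and 130 outlier spots. Of 41174 probes, 22731 were tested: those well above background on both arrays in the same dye. The test was the mean log2 ratio of 2 arrays against 0, 2-sided, with lmFit and eBayes and Benjamini-Hochberg adjustment. Normalised brightness is the corrected intensity after loess. The number of arrays limits the precision: 1 residual degree of freedom remains, and nothing states that the cultures were independent, so the spread may be technical. The fit was tested on simulated data.

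Members, lists and rules were chosen with earlier results of these data known. Genes were named by rule: past the threshold or 2-fold on both arrays, the 3 highest and 3 lowest of each complex, all of complex II, tissue isoforms, the 3 largest differences between arrays, and probes of opposite sign. The values of 1 gene this rule names are not reported here. Further genes, such as other subunits and genes of the comparison lists, were named after their values were seen. Alternatives were the offset, no background subtraction, median centring, the scanner's processed signals, the authors' table, other filters, probe averaging, the methods' t-test, and each array alone.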

Additional observations from a re-analysis of the deposited data

Results flagged for a closer look

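Members whose arrays moved in opposite directions by at least 0.25 on the log2 scale on each were picked out. The log2 ratio of the genotype comparison minus that of the treatment comparison was -2.12 for Cox6a2, -1.17 for Cox8b and -0.82 for Cox7a1. With 1 array per comparison, these differences were not tested.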

How the results depend on the processing

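Precision rests on 2 arrays, and Cox4i2, Cox7b2, Cox7c and Cox8c were too dim to read. No member passed an adjusted p of 0.05 in limma under any setting or in the methods' t-test. Leaving out an array leaves no test. At an unadjusted p under 0.05 there were 11 members, but 5 with an offset of 10, 6 without background subtraction and 1 with the scanner's processed signals. There were 5 with the authors' table, 17 without a filter and 6 by the methods' t-test. Median centring gave 27, and median centring on the tested probes, an alternative chosen after seeing the data, gave 25. Over all 22731 tested probes the counts were 3976 in the main setting, 3509 with an offset of 10 and 4337 without background subtraction. They were 3694 with the scanner's signals, 4318 with the authors' table and 1934 by the t-test. Median centring gave 2431 probes, and centring on the tested probes 3065. Without a filter, 5661 of 41158 probes were counted.

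Median centring alone moved the median of all probes on the treatment array to 0.38. With it 67 members were higher on both arrays and 0 lower, while 66.2% of the brightest 20% of genes were higher. Centred on the tested probes, 66 were higher and 0 lower, and 60.2% of that 20% were higher. The members' median was then 0.45 and 0.25, where that of the 20% was 0.36 and 0.16. By complex the medians became 0.44 and 0.24 (I), 0.21 and 0.013 (II, a turned sign), 0.50 and 0.30 (III) and 0.55 and 0.35 (V), and 0.36 for complex IV with the first. Sdhd turned to 0.14 with the first.

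With the processed signals of the scanner, 36 members (43.9%) were higher on both arrays and 22 (26.8%) lower. The shares of all tested genes were then 32% and 35.2%. The members' median fell to 0.035, against -0.022 over all tested genes. In that setting the median of complex IV turned to -0.051, that of complex V was 0.061, and Cox6a1 turned to -0.028. With the authors' table complex IV was at 0.028. Complex V had 10 to 15 of 15 genes higher and 0 or 1 lower across settings. With 1 array alone, counts of lower genes were 27 and 27, and the median of complex IV was -0.062 in the genotype and 0.175 in the treatment comparison. No paired analysis was possible because each array is itself the contrast of its 2 RNAs.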
